A study of Mus musculus with 9 samples.

Results

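The genes described here are 10 genes of Wnt signalling that are known from work on the blood-brain barrier: Lef1, Axin2, Apcdd1, Adgra2, Reck, Fzd4, Fzd6, Lrp5, Tspan12 and Foxq1. They were chosen by name, with earlier results of these data known, from the 18194 genes that a probe set of the array names alone. Together they are covered by 22 of 45101 probe sets. For each gene the probe set that was brightest on average was taken, and any others served as a check.

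Brain microvascular fragments, short pieces of small vessels, were compared with the embryonic brain tissue that remained without them (rest of brain) and between ages. Embryonic fragments (3 arrays) and embryonic rest of brain (3 arrays) came from mice of the NMRI strain at embryonic day 18.5. Adult fragments (3 arrays) came from mice of a mixed C57/SV129 background aged 1 year, with males as replicates 1 and 3 and a female as replicate 2. No group carries a transgene or a treatment in the labels. The labels call the 3 arrays of each group biological replicates, and they do not say whether a replicate pools several animals. The sources used here give neither the sex of embryos nor an isolation method. For replicate 3 of rest of brain, 1 label gives another embryonic day than the others, and the array was kept in its group.

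Wnt ligands bind a Frizzled receptor together with an LRP coreceptor at the cell surface, which keeps beta-catenin from being degraded. Beta-catenin then enters the nucleus and acts there with LEF and TCF factors. In brain vessels, WNT7A and WNT7B from neural cells act through Frizzled receptors with the help of ADGRA2 (GPR124) and RECK, and norrin acts through FZD4, LRP5 and TSPAN12. This signalling is known to be needed for vessels to grow into the brain and for the endothelium to form and keep its barrier. Lef1, Axin2 and Apcdd1 are among its target genes and report on its activity in many tissues.

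The sequences of 4 members show the DNA just before a transcription start, where factors of the basal machinery bind, for 3 members with higher values in embryonic fragments than in rest of brain (Axin2, Reck and Fzd4) and for 1 member without such a difference (Tspan12). Each is the 250 bases before an annotated start in RefSeq, build GRCm38.p6, given 5′ to 3′ on the strand of the gene, with CG dinucleotides in capitals. The windows lie at chr11:108920099-108920348 on the plus strand for Axin2, chr4:43875280-43875529 on the plus strand for Reck, chr7:89404116-89404365 on the plus strand for Fzd4 and chr6:21852534-21852783 on the minus strand for Tspan12.
Axin2: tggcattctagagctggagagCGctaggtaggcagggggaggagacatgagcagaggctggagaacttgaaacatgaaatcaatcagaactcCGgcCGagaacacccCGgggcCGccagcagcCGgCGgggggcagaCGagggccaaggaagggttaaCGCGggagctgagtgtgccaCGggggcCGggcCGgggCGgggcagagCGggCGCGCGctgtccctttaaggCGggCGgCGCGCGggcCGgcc
Reck: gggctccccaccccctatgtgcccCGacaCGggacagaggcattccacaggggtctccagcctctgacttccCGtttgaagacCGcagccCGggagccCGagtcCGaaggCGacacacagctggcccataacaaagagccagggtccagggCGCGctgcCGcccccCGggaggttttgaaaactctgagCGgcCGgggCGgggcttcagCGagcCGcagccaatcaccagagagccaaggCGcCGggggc
Fzd4: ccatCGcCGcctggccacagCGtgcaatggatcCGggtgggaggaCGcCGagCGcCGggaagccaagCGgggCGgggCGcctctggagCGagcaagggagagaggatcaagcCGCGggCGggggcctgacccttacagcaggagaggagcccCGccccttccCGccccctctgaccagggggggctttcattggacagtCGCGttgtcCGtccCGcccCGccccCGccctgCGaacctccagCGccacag
Tspan12: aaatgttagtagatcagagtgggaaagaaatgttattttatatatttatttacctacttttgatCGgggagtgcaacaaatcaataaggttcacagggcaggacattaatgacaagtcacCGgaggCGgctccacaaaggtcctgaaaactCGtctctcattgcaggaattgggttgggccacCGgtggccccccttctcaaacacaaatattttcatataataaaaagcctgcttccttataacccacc
The Axin2, Reck and Fzd4 windows hold 24, 19 and 25 CG dinucleotides, against a median of 6 over the 32851 windows of this length. The Tspan12 window holds 5, and 55.6% of all windows hold at least as many. The windows of Lef1, also higher in the fragments, hold 11, 14, 6 and 5, so the counts do not separate members with and without a tissue difference. RefSeq windows were used for 5 of the 10 members, with 4 starts for Lef1 and 1 each for the others, so 8 windows in all. Windows on 1 chromosome were left out for members and kept among all windows, so a member there was not searched. The heptamers CTTTGAT and CTTTGAA, forms of the site that TCF and LEF factors bind, were searched on both strands, and a window that holds both, overlapping or not, counts once where either is counted. They stand in 3.21% and 4.46% of all windows, either of them in 7.48%, and in 0 of these 8 windows of members. With so few windows, some of those of Lef1 overlapping, this count cannot tell the members from all windows.

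Levels are log2 intensities. They come from GCRMA, which corrects probes for background by their base composition and equalizes the arrays. Array medians lay between 3.58 and 3.67, and the number of arrays limits the precision. A value under 4 is treated as background. Tests are limma's moderated test on all 9 arrays, adjusted by Benjamini-Hochberg over the 12009 genes that reached 4 on at least 3 arrays, and a gene is called at an adjusted p under 0.05. Of the 10 members, 9 were tested, each with values of at least 4 on all 9 arrays. The exception was Lrp5, the LRP coreceptor that norrin signalling uses, whose single probe set, 1449299_at, lay between 2.11 and 2.15 on every array, at background in all 3 groups, so no level of Lrp5 can be given.

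The fragments carried vessel markers on every array. All 12 endothelial markers were higher in embryonic fragments than in rest of brain, with a median difference of 7.42, and their summed level on the log2 scale was 16.6 to 16.9 in embryonic fragments, 8.88 to 9.56 in rest of brain and 16.7 to 16.9 in adult fragments. Of these markers, Pecam1, Tie1, Erg, Emcn and Robo4 were at background on all rest of brain arrays. Embryonic fragments replicate 1 stood apart from the other 2 arrays of its group: it was highest for all 12 endothelial markers and lowest for all 9 microglial, 5 choroid plexus, 6 tested progenitor and 8 tested pericyte markers. It was also the highest of the 3 for 8 of the 9 tested members. Without it, the same numbers of members were called, 8 between the embryonic tissues and 5 between the ages. All 8 tested pericyte markers and all 9 microglial markers were higher in embryonic fragments too, with medians of 2.59 and 2.77, and 4 of 7 smooth muscle markers were. All 7 tested neuronal, 6 progenitor and 6 oligodendrocyte lineage markers and 7 of 8 tested astrocyte and fibroblast markers each were lower there, as were 2 of 5 choroid plexus markers. The part of these other cell types in the results that follow was not tested.

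The first comparison asks in which part of the embryonic brain the members are expressed. Of the 9 tested members, 8 had higher values in embryonic fragments than in the rest of brain: the receptors Fzd4 and Fzd6, the coreceptors Adgra2 and Reck, the targets Lef1, Axin2 and Apcdd1, and the transcription factor gene Foxq1. None was lower, and Tspan12 was not called. Their differences ran from 1.38 for Axin2 to 7.10 for Foxq1 on the log2 scale. Of all tested genes, 28.9% were called higher and 37.2% lower in this comparison, 66.1% in either direction. The median difference of the 9 members was 4.36, against -0.10 over all tested genes. In bulk tissue, fewer cells of a type and less RNA per cell cannot be told apart.

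**Figure D1:**
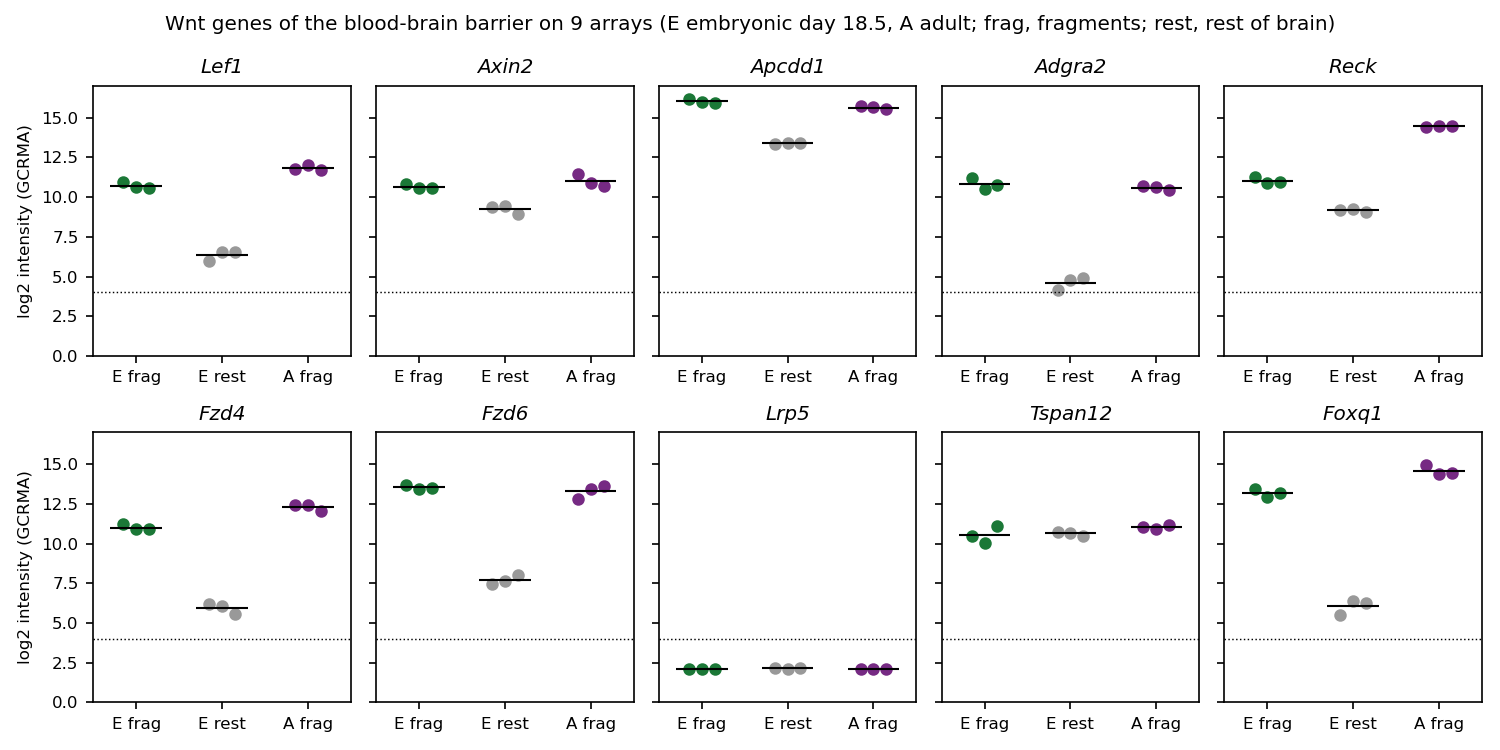
Log2 intensity (GCRMA) of the 10 Wnt genes on each of the 9 arrays, 1 panel a gene, with points for arrays, bars for group means and a dotted line at the background value of 4. For 8 genes all 3 embryonic fragment arrays lie above all 3 rest of brain arrays, Tspan12 is alike in both tissues, and Lrp5 is under the line on every array.

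Among the receptors, Fzd4, the Frizzled that binds norrin and takes part in WNT7 signalling, was at 11.21, 10.90 and 10.90 on the 3 embryonic fragment arrays and at 6.23, 6.07 and 5.56 in rest of brain. The groups were far apart, with a difference of 5.05 ± 0.20 (SE of the fit, n = 3 arrays a group), or 33.1-fold (limma adjusted p = 5.23e-08). Fzd6, a Frizzled best known for planar cell polarity in hair and skin, was at 13.70, 13.47 and 13.52 in embryonic fragments and at 7.43, 7.67 and 8.05 in rest of brain. Its 3 fragment arrays stood close together and well above the others, 57.5-fold by the fit (difference 5.84 ± 0.23, adjusted p = 5.30e-08). The second-brightest probe sets of both genes differed the same way, by 6.43 for Fzd4, with the 2 rest of brain arrays under 4 set to 4, and at least 19.1-fold for Fzd6, with all 3 at background. The remaining probe set of each gene was at background in all groups and gives no level.

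Adgra2, the adhesion G protein-coupled receptor that makes endothelial cells responsive to WNT7, was at 11.23, 10.50 and 10.78 in embryonic fragments. In rest of brain it was at 4.16, 4.80 and 4.88, just above background. Its difference was 6.22 ± 0.24, or 74.6-fold (adjusted p = 4.20e-08), without overlap of the groups. Reck, the membrane-anchored partner of Adgra2 that binds WNT7 and is also known as an inhibitor of matrix metalloproteinases, was at 11.24, 10.87 and 10.96 in embryonic fragments and at 9.16, 9.28 and 9.08 in rest of brain. Reck was thus well above background on both sides and 3.61-fold higher in the fragments (difference 1.85 ± 0.12, adjusted p = 1.43e-06). Adgra2 and Reck have 1 probe set each, and the identifier of the Adgra2 probe set marks probes shared by several transcripts.

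Tspan12, the tetraspanin that serves norrin signalling as a coreceptor, did not separate the tissues. It was at 10.47, 10.05 and 11.14 in embryonic fragments and at 10.75, 10.67 and 10.51 in rest of brain, and the groups overlapped. The difference was -0.09 ± 0.24, with a 95% interval from -0.65 to 0.46 (adjusted p = 0.767), and it took the other sign, 0.16, without embryonic fragments replicate 2. The spread among the embryonic fragment arrays, 1 of which lay highest and 1 lowest of these 6, was 0.55 (SD), against 0.13 in rest of brain. The gene has 1 probe set, marked as shared by several transcripts.

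Among the target genes, Lef1, the nuclear partner of beta-catenin and itself a target, was at 10.98, 10.65 and 10.57 in embryonic fragments and at 5.97, 6.56 and 6.57 in rest of brain. Its difference of 4.36 ± 0.19 is 20.6-fold (adjusted p = 1.06e-07). The other probe set of Lef1, at background in rest of brain, was at least 20.4-fold higher. Axin2, a scaffold of the complex that degrades beta-catenin and a negative feedback target, was at 10.80, 10.55 and 10.57 in embryonic fragments. In rest of brain it was at 9.37, 9.47 and 8.95, so it was well above background in both tissues. The tissues did not overlap and differed by 1.38 ± 0.22 (adjusted p = 0.000507). The second Axin2 probe set was at background on all arrays.

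Apcdd1, a membrane-bound inhibitor of Wnt signalling and a target of it, was at 16.18, 15.99 and 15.96 in embryonic fragments and at 13.36, 13.39 and 13.42 in rest of brain. This probe set, 1454822_x_at, was brighter than 99.8% of all probe sets, and it gave a difference of 2.65 ± 0.10 (adjusted p = 4.71e-08). Its identifier marks it as open to shared probes, and whether its signal was saturated was not tested, so no fold is given. The brightest probe set without that mark gave 4.34, or 20.3-fold. The 5 other probe sets of Apcdd1 were dimmer and gave larger differences, 3.95, 4.27, 4.34 and 4.78, and at least 69.5-fold for the dimmest, which was at background in rest of brain. In the fit over all probe sets, 30.9% were called higher and 32.7% lower. All 6 placed Apcdd1 higher in the fragments, and the size of its difference depended on the probe set.

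Foxq1, a forkhead transcription factor gene, was at 13.42, 12.91 and 13.16 in embryonic fragments and at 5.52, 6.41 and 6.27 in rest of brain. The difference was 7.10 ± 0.26, or 137-fold (adjusted p = 3.56e-08). Its other probe set was at 8.90, 8.54 and 8.92 in embryonic fragments and under 4 on all 3 rest of brain arrays, at least 27.6-fold higher. Both probe sets thus separated the tissues without overlap.

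The second comparison asks how the members differ between embryonic and adult fragments, where age, strain and RNA extraction kit differ together and cannot be told apart. Of the 9 tested members, 4 were higher in adult fragments (Reck, Foxq1, Fzd4 and Lef1) and 1 was lower (Apcdd1). Axin2, Adgra2, Fzd6 and Tspan12 were not called. Of all tested genes, 27.4% were called higher and 29.7% lower, 57.1% in either direction, so the members' share of calls was near that of all genes. The median difference of the members was 0.48, against -0.02 over all tested genes. The calls of Foxq1, Fzd4 and Lef1 were not shared by their other probe sets, and Reck has 1 probe set alone.

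**Figure D2:**
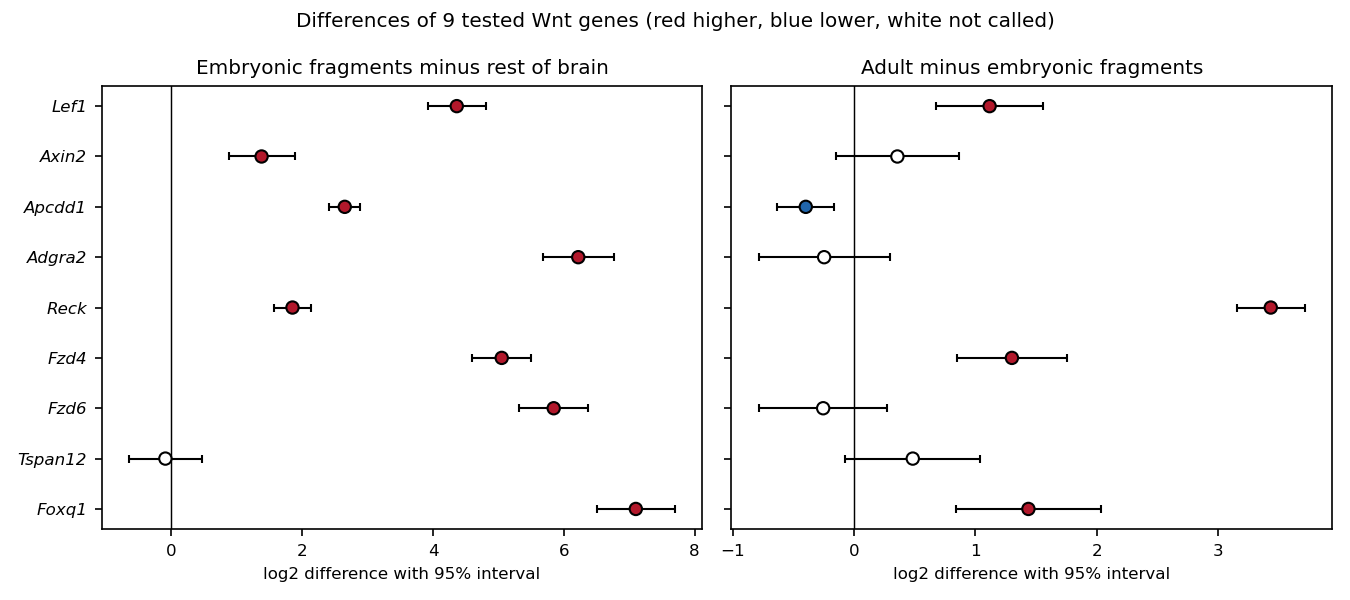
Log2 differences of the 9 tested Wnt genes with 95% intervals, embryonic fragments minus rest of brain on the left and adult minus embryonic fragments on the right, red where called higher, blue where called lower and white where not called. Between tissues 8 of 9 intervals lie above 0, and between ages Reck stands at 3.44 while the others lie between -0.40 and 1.44.

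The vessel preparations of both ages had near-equal endothelial signal and unequal signal of other cells. Of the 12 endothelial markers, 3 were higher and 5 lower in adult fragments, with a median difference of -0.07. Of 8 tested pericyte markers, 3 were higher and 1 lower, and their summed level was 16.1 to 16.4 in embryonic and 16.7 in adult fragments. Smooth muscle markers were higher in 6 of 7 and lower in 1, with a summed level of 12.4 to 12.9 in embryonic and 15.5 to 15.7 in adult fragments, and Cnn1 and Lmod1 were at background in embryonic fragments. Fibroblast markers were higher in 2 of 8 and lower in 2 (summed level 13.2 to 13.6 in embryonic and 12.1 to 12.6 in adult fragments). Choroid plexus markers were higher in 4 of 5, progenitor markers lower in 4 of 6 and neuronal markers lower in 4 of 7 and higher in 1. Of astrocyte markers 5 were higher and 3 lower, of microglial markers 3 and 1, and of oligodendrocyte lineage markers 1 and 2. The part of these cells in the differences between ages was not tested.

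Reck was at 14.41, 14.47 and 14.50 on the 3 adult fragment arrays, where embryonic fragments were at 10.87 to 11.24. Among the probe sets used for the members, that of Reck moved most, by 3.44 ± 0.12 or 10.8-fold (adjusted p = 1.10e-07). A dimmer Apcdd1 probe set, not the one used, gave -4.26. Beside Reck, smooth muscle markers had a median difference of 2.92 and pericyte markers had a median of 0.29. Its partner Adgra2 was at 10.68, 10.62 and 10.45 in adult fragments, overlapping the embryonic arrays, and was not called (-0.25 ± 0.24, 95% interval -0.79 to 0.29, adjusted p = 0.408).

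Fzd4 was at 12.45, 12.40 and 12.05 in adult fragments, above all embryonic fragment arrays, and was 2.46-fold higher (1.30 ± 0.20, adjusted p = 0.000577). Its second probe set differed by 0.70 and was not called (adjusted p = 0.109), though its groups did not overlap. Fzd6 was at 12.82, 13.46 and 13.63 in adult fragments and was not called (-0.26 ± 0.23, interval -0.78 to 0.27, adjusted p = 0.379). Tspan12 was at 11.02, 10.92 and 11.16 in adult fragments. Its difference of 0.48 ± 0.24 (interval -0.07 to 1.04) was not called at an adjusted p of 0.122, and without embryonic fragments replicate 3 it was 0.77 and called (adjusted p = 0.00573, against up to 0.386 over the other alternatives without endothelial scaling). Fzd6 and Tspan12 overlapped between the ages.

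The 3 targets did not move together. Lef1 was at 11.78, 12.03 and 11.73 in adult fragments, above every embryonic fragment array, and 2.17-fold higher (1.12 ± 0.19, adjusted p = 0.00116). Its other probe set was at 8.28, 8.19 and 8.35 in adult and 8.68, 8.45 and 7.91 in embryonic fragments and showed no difference that passed the test (-0.076, adjusted p = 0.824). Whether Lef1 was higher in adult fragments thus depended on the probe set. Axin2 was at 11.46, 10.86 and 10.67 in adult fragments, which overlapped the embryonic range, and was not called (0.36 ± 0.22, interval -0.15 to 0.86, adjusted p = 0.204).

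Apcdd1 was at 15.71, 15.65 and 15.56 in adult fragments, under all embryonic fragment arrays. The brightest probe set gave -0.40 ± 0.10 (adjusted p = 0.00942), with the same doubts on its size, a call lost under cyclic loess (-0.27, adjusted p = 0.0614, against 0.00109 at the lowest among the 20 alternatives that kept this probe set and used no endothelial scaling). The other 5 probe sets gave -1.64, -1.92, -2.37, -2.79 and -4.26, each called in the fit over all probe sets, where 31.8% of 23499 were called lower and 23.8% higher, with adjusted p from 5.88e-06 to 4.55e-05. The second of these, the brightest without shared probes, is 3.78-fold lower. All 6 probe sets placed Apcdd1 lower in adult fragments, and the brighter the probe set in embryonic fragments, the smaller its difference, with 1 exception among near-equal neighbours. The plot of the probe sets' differences against their brightness shows this order.

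**Figure D3:**
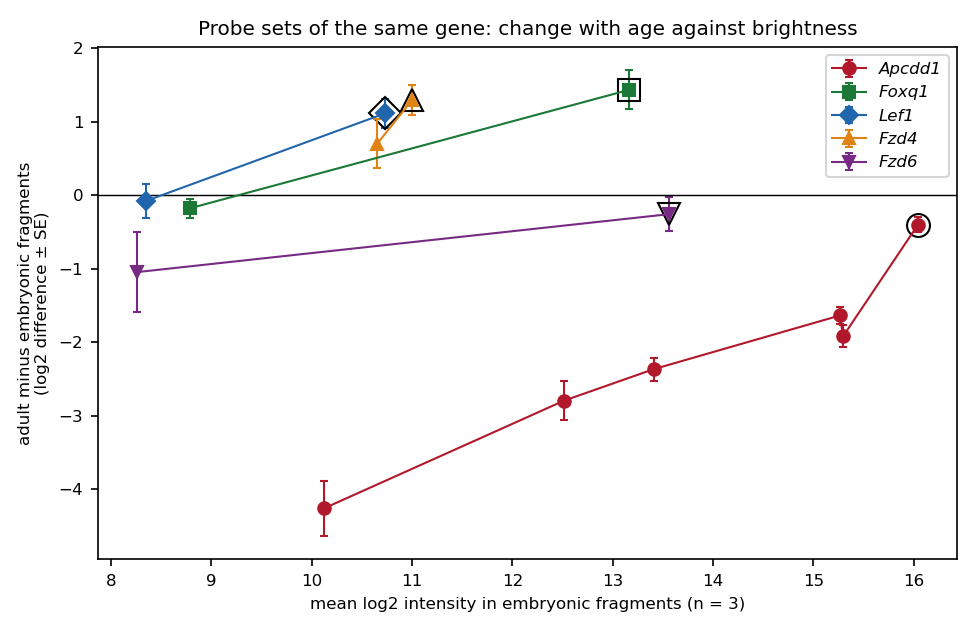
Adult minus embryonic fragments (log2 difference, bars ± SE of the fit) against the mean log2 intensity in embryonic fragments (n = 3 arrays) for each tested probe set of the 5 members with more than 1, black outlines marking the probe set used. The Apcdd1 differences run from -4.26 at the dimmest to -0.40 at the brightest probe set, and Lef1 and Foxq1 each have 1 probe set above 0 and 1 just below it.

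Foxq1 was at 14.97, 14.40 and 14.44 in adult fragments, all above the embryonic ones, and 2.71-fold higher (1.44 ± 0.26, adjusted p = 0.00160). Its other probe set was at 8.73, 8.54 and 8.56 in adult fragments and gave -0.18 (adjusted p = 0.286). The probe set used is marked by its identifier as open to probes shared with other transcripts and the other one is not, so the difference between ages rests on 1 probe set of 2.

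Adult fragments were also set beside embryonic rest of brain, a pair that differs in tissue, age, strain and extraction kit and shares arrays with both comparisons above. Lef1 was higher by 5.48, Axin2 by 1.73, Apcdd1 by 2.25, Adgra2 by 5.97, Reck by 5.29, Fzd4 by 6.35, Fzd6 by 5.59 and Foxq1 by 8.54, and these 8 of 9 were called. Of all tested genes 33.1% were called higher and 42.9% lower, 76.0% in either direction. Tspan12 was not called (0.39, adjusted p = 0.172).

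The other genes of the pathway were taken as lists by role. The counts over a list describe it, since a gene above background in 1 group alone had to differ. Of 26 genes for ligands, agonists and their release, 11 were tested. In embryonic fragments against rest of brain, 1 was higher and 6 were lower, beside 28.9% and 37.2% of all tested genes. The median of -1.77 is the difference of Wnt4, at background in the fragments, and Wnt4 gave -0.73 with values under 4 set to 4. Wnt4, Wnt7b, Ndp and Rspo2 reached 4 in rest of brain alone, so they had to be lower in the fragments. Wnt7b was at 2.10, 2.51 and 2.52 in embryonic fragments, at background, and at 8.01, 7.59 and 8.05 in rest of brain, at least 14.8-fold lower in the fragments. Rspo2, an R-spondin that amplifies Wnt signals, was at least 16.6-fold lower. Wls, which carries Wnt proteins to the cell surface, was higher by 0.61 ± 0.15 (adjusted p = 0.00668).

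The other ligands of the barrier's Frizzled receptors were looked at after the values were seen. Ndp, the norrin gene, was at 2.05 to 2.06 in all fragments and at 5.23, 6.35 and 6.44 in rest of brain, at least 4.02-fold lower in embryonic fragments. The Wnt7a probe set with the highest mean stayed between 4.70 and 4.80 on all arrays and gave no difference. The next one, 1423367_at, was at 9.51, 9.35 and 9.25 in rest of brain and between 2.14 and 2.17 in all fragments, at least 41.4-fold lower in embryonic fragments. Ndp and this second Wnt7a probe set reached 4 on the rest of brain arrays alone, so no p is given for them. The 3 ligand genes thus each had a probe set above background in rest of brain that was at background in the fragments of both ages, while the receptor genes Fzd4 and Fzd6 were higher in embryonic fragments.

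Of 16 other receptor genes, 12 were tested, 1 higher and 10 lower in embryonic fragments than in rest of brain (median -0.93). The Frizzled genes Fzd2 and Fzd3 were lower by -5.05 and -4.16 (-2.89 with the next probe set of Fzd3), and Lrp6, the coreceptor of the WNT pathway related to Lrp5, was higher by 0.68 ± 0.12 (adjusted p = 0.000921, and 1.38 with its next probe set). Of 17 inhibitor genes, 11 were tested, 4 higher and 4 lower (median -0.18). Notum, an enzyme that inactivates Wnt proteins by removing their lipid, was at 10.03, 9.12 and 9.52 in embryonic fragments and at background in rest of brain, at least 47.1-fold higher. Dkk2, of the Dickkopf family of LRP antagonists, was higher by 3.44 with the 1 rest of brain array under 4 set to 4. The secreted inhibitor Sfrp1 was lower by -4.15 and Dkk3 by -2.10.

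Of 16 cytoplasmic genes, 15 were tested, 1 higher and 6 lower in embryonic fragments (median -0.33). Apc2, a relative of the tumour suppressor Apc, was at least 71.9-fold lower and at background in fragments, and the kinase gene Csnk1e was lower by -1.54. The tankyrase gene Tnks2 was higher by 0.47, but its next probe set gave -0.55 (adjusted p = 0.00524). Of 13 nuclear genes, 12 were tested, 2 higher and 6 lower (median -0.66). Tcf7l1, a TCF factor that often acts as a repressor, was higher by 1.37 (0.55 with its next probe set), and Ctnnbip1, which blocks the binding of beta-catenin to TCF factors, by 0.62, the latter not called by its next probe set (adjusted p = 0.337). Pygo1 was at least 1.78-fold lower and the corepressor gene Tle2 lower by -1.81.

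All 8 genes of a list of targets from many tissues were tested, 6 higher and 1 lower in embryonic fragments (median 1.47). Bambi, a decoy receptor of the TGF-beta family, was at 12.96, 12.35 and 12.71 in embryonic fragments and at 7.84, 7.48 and 7.57 in rest of brain, higher by 5.05 ± 0.30 (adjusted p = 7.04e-07). The cyclin gene Ccnd1 was higher by 2.75 and the transcription factor gene Sp5 lower by -2.01. The list of 8 barrier genes holds genes that endothelial beta-catenin is known to affect and gives no direction of that effect. Of these genes, 7 were tested and all 7 were higher (median 6.20, the difference of Plvap). Beside them, the 12 endothelial markers were all higher with a median of 7.42, and 28.9% of all tested genes were called higher. The part of vessel enrichment in these differences was not tested. Sox17, an endothelial transcription factor gene, was at 13.88, 13.71 and 13.71 in embryonic fragments and at background on 2 rest of brain arrays and 4.31 on the other, higher by 9.66 with the values under 4 set to 4. Abcb1a, the gene of an efflux pump, was higher by 8.91 (9.63 with its next probe set).

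**Figure D4:**
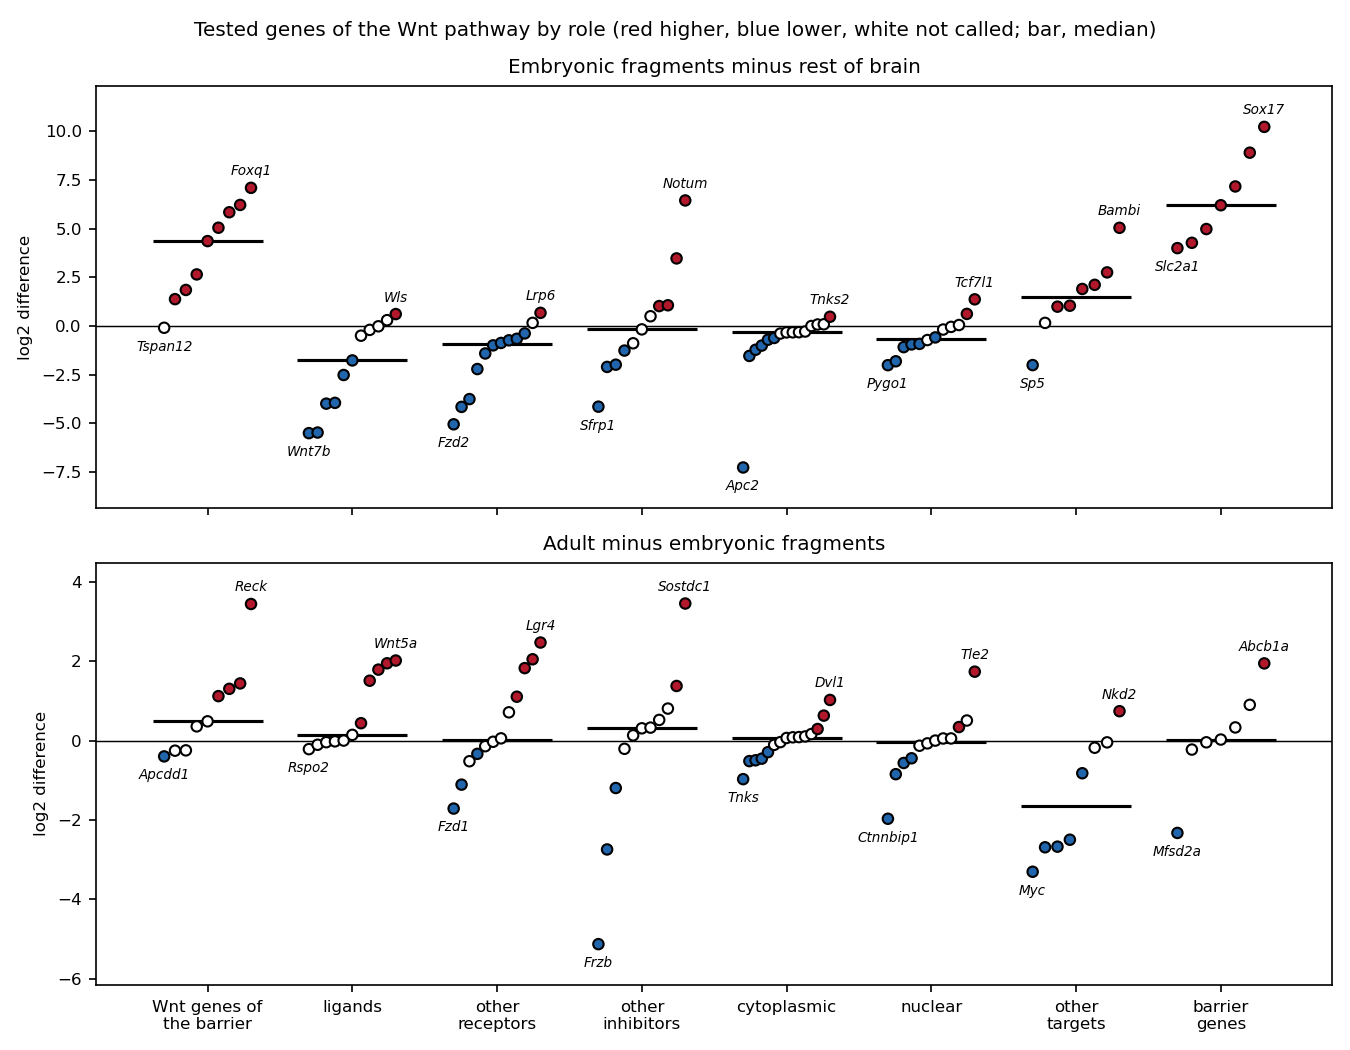
Log2 difference of each tested gene of the Wnt pathway by role, embryonic fragments minus rest of brain above and adult minus embryonic fragments below, red where called higher, blue where called lower and white where not called, with bars at list medians. In the upper panel the medians of the barrier's Wnt genes (4.36), the other targets (1.47) and the barrier genes (6.20) lie above 0, and in the lower panel the median of the other targets lies at -1.66.

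Between the ages, most called targets were lower, and the called barrier genes were split. Of the 8 other targets, 5 were lower in adult fragments and 1 was higher (median -1.66), beside 29.7% lower and 27.4% higher of all tested genes. Myc, a proliferation gene, was at 8.99, 9.42 and 9.13 in embryonic and at 5.80, 6.02 and 5.81 in adult fragments, a fall of 9.88-fold (-3.30 ± 0.13, adjusted p = 2.26e-07). The adhesion receptor gene Cd44 was lower by -2.69 (-1.57 with its next probe set), and the remaining called ones, named after their values were seen, were Bambi (-2.67), Ccnd1 (-2.50, or -1.76 with its next probe set) and Nkd1 (-0.82). Nkd2, an antagonist of Dishevelled, was higher by 0.74 (adjusted p = 0.0363) and lost its call under 13 of 23 alternatives. Beside these genes, progenitor markers had a median of -2.85.

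Of the 7 tested barrier genes, Mfsd2a, a lipid transporter of brain endothelium, was at 14.29, 14.10 and 14.06 in embryonic and at 11.89, 11.86 and 11.72 in adult fragments, 5.02-fold lower (-2.33 ± 0.14, adjusted p = 2.24e-06). Abcb1a was higher by 1.94 ± 0.18 (adjusted p = 2.70e-05), and the other 5 were not called (median 0.02). The called barrier genes thus went in both directions, and the called targets were lower but for Nkd2, whose call was not stable.

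Of the 11 tested genes for ligands, agonists and their release, 5 were higher and 0 lower in adult fragments. Of all tested genes, 27.4% were higher and 29.7% lower. The median of 0.14 is the difference of Wnt7b, at background at both ages. Wls, 1 of the 5, was higher by 0.44 and lost its call under 12 of 23 alternatives. Wnt5a, a ligand best known for signalling without beta-catenin, was at 8.83, 8.10 and 8.10 in embryonic and at 10.43, 10.38 and 10.26 in adult fragments, 4.04-fold higher (2.01 ± 0.20, adjusted p = 4.90e-05). Rspo3, a further R-spondin, was at 4.46, 4.57 and 4.46 in embryonic and at 4.84, 7.02 and 7.46 in adult fragments, higher by 1.94 (adjusted p = 0.0200), a call lost under 6 of 22 alternatives with adjusted p up to 0.0725. Without adult fragments replicate 1, the lowest of the 3, its difference was 2.74. Smooth muscle markers were higher in the adult fragments beside them.

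Among the 12 other receptor genes, 4 were higher and 3 lower in adult fragments (median 0.01). Lgr4, a receptor for R-spondins, was higher by 2.47 ± 0.28 (adjusted p = 9.39e-05) and Fzd2 by 2.04 (adjusted p = 0.0133), whose groups overlapped and whose call was lost under 2 of 23 alternatives (0.71 with its next probe set). Fzd1 was lower by -1.71 and Ror2, a receptor for WNT5A, by -1.11. Among the 11 inhibitor genes, 2 were higher and 3 lower (median 0.31). Frzb, a secreted Frizzled-related protein gene, fell from 8.21, 7.38 and 7.57 in embryonic fragments to background in adult ones, at least 13.2-fold. Wif1, which binds Wnt proteins outside the cell, was at least 4.27-fold lower.

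Sostdc1, an antagonist of BMP and Wnt signals, was higher by 3.45 (adjusted p = 0.000903), at 6.21, 8.51 and 8.33 in embryonic and at 11.53, 11.31 and 10.55 in adult fragments, beside choroid plexus markers that were higher in 4 of 5 with a median of 2.18. Without embryonic fragments replicate 1, which was also lowest for all 5 of those markers, the difference was 2.71 (adjusted p = 0.000233, against up to 0.0299 over the alternatives). Sfrp1 was higher by 1.37, but its next probe set gave -0.52 and was not called (adjusted p = 0.431). Of the 15 cytoplasmic genes, 3 were higher and 5 lower (median 0.06), led by Dvl1 at 1.02, Amer1 at 0.63, Tnks at -0.97 and Tnks2 at -0.52, of which Dvl1, Amer1 and Tnks2 were not called by the next probe set. Of the 12 nuclear genes, 2 were higher and 4 lower (median -0.04), led by Tle2 at 1.73, Tle3 at 0.34, Ctnnbip1 at -1.97 (-3.64 with its next probe set) and Tle1 at -0.85. Tle3 lost its call under 13 of 22 alternatives and Tle1 under 2 of 23.

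Genes of like pattern were found as the smallest distance between centred values over the 9 arrays, among 12000 tested genes other than the members. For Lef1 these were Itpripl2, Sgms1 and Ripply3, at distances of 0.43, 0.59 and 0.69 on the log2 scale. For Axin2 they were Reep3 (0.32), Asxl2 (0.49) and Sp1 (0.49), and for Apcdd1 Actn4 (0.29), Rell1 (0.34) and Ripor1 (0.38). For Fzd4 they were AI467606 (0.53), Klf4 (0.56) and Dtx3l (0.79). The nearest genes of Tspan12 were Manea (0.51), Crot (0.61) and Ring1 (0.61), which differed by -0.085, 0.093 and -0.33 between the embryonic tissues. These are descriptions over 9 arrays that share 3 groups.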

How the data were processed

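Gene expression was measured on 1 short oligonucleotide array per sample. The authors deposited 1 log2 intensity per probe set and array, computed with GCRMA 2.6.0 (R 2.4.1) according to the submitters' processing notes. The log2 scale was read from the range of values. GCRMA equalizes the distributions of the arrays, so a change in total RNA per cell cannot be seen. Scanner files were not analysed here. RNA came from about 100 ng total RNA after small-sample amplification, extracted with a micro kit from embryos and a mini kit from adults, per the labels' protocols.

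Of 45101 probe sets, 34958 name 1 gene, 932 several and 9211 none, and names were checked through Entrez identifiers in a RefSeq table of GRCm38.p6, which changed 0 symbols. For each gene the probe set with the highest mean was used. Genes that reached 4 on 3 or more of the 9 arrays entered a limma fit (version 3.58.1, R 4.3.3) with group as factor, lmFit and eBayes, 2-sided tests and 8.43 degrees of freedom. A fold is 2 to the power of a log2 difference, and an "at least" fold sets the other group's mean against 4 where all 3 arrays lay under 4. The fit was tested on simulated data.

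The members, lists, tests and alternatives were chosen with earlier results of these data known. Named genes are all members and, per other list and comparison, the 2 called genes with the largest difference in each direction, and for 5 members the 3 genes of like pattern. Deviations of same-numbered arrays of embryonic fragments and rest of brain were correlated (0.19, 0.20 and 0.22). Those of differently numbered arrays of these groups lay between -0.21 and -0.02. Adult replicate 2 with embryonic fragments replicate 1 reached a like value (0.21), so a value of this size alone does not establish a pairing. Whether the embryonic arrays are pairs was thus left undecided, and the main fit has no replicate block. Alternatives were 15 settings and leaving out each of the 9 arrays.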

Additional observations from a re-analysis of the deposited data

How the results depend on the processing

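Between embryonic fragments and rest of brain, 8 of 9 tested members were called. The count was 5 of 5 with the probe set of next highest mean, where 3246 of all 5276 genes tested were called. It was 7 of 7 without probe sets open to shared probes, beside 6908 of 10342 genes. Fewer members were tested in these settings. With the arrays shifted to equal endothelial markers it was 9, where 11958 of 12009 genes were called, 11927 of them lower. The count was 8 under the other settings and without any 1 array. Between the ages, 5 members were called, 1 of 5 with the next probe set, 4 under cyclic loess, 4 of 7 without shared probes, and 5 to 6 without 1 array. Of all genes, 2926 of 5276 were called there with the next probe set and 5815 of 10342 without shared probes. Between adult fragments and rest of brain, 8 members were called, 5 of 5 with the next probe set (3789 of 5276 genes), and 8 to 9 without 1 array. With the replicate block the counts were 8, 5 and 8, so it changed no member's call; the numbers of adult and embryonic fragments do not pair the arrays (r of deviations 0.03, -0.08 and 0.21). Shifting the arrays to equal endothelial markers moved the median of all genes to -7.93 between the embryonic tissues and to -7.78 between adult fragments and rest of brain, since it subtracts the markers' own difference. The signs of these members turned: Lef1 -3.46, Axin2 -6.44, Apcdd1 -5.17, Adgra2 -1.60, Reck -5.97, Fzd4 -2.77, Fzd6 -1.98 and Foxq1 -0.72 in the first, and Lef1 -2.13, Axin2 -5.87, Apcdd1 -5.36, Adgra2 -1.64, Reck -2.32, Fzd4 -1.26, Fzd6 -2.02 and Tspan12 -7.22 in the second. Tspan12 between the embryonic tissues ran from -0.38 to 0.16 when 1 array was left out. Between the ages Lef1 (-0.076) and Foxq1 (-0.18) turned with another probe set, and Apcdd1 lost its call with endothelial markers made equal (-0.19, adjusted p = 0.380) and under cyclic loess. Of 210 values per comparison under the alternatives other than the endothelial shift, 209, 201 and 208 kept their direction and side of the threshold. Most of these values reuse the same probe set and arrays, and some other probe sets count more than once, so they are not separate checks. Cyclic loess split the calls between ages into 3847 higher and 3073 lower against 3289 and 3565. Adgra2 between the embryonic tissues was 5.50 with an offset on low values. Among the other pathway genes called, averaging all probe sets moved 14 differences between the embryonic tissues and 12 between the ages by over 1.5-fold. The cause of these changes was not tested. With 3 arrays a group and 1 probe set each, Adgra2, Reck and Tspan12 have no second measurement.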

Other observations

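The Frizzled family and the WNT5 genes, chosen after their values were seen, show patterns not described above. Of the 8 other Frizzled genes, 7 were tested, and all 7 were lower in embryonic fragments than in rest of brain, where Fzd4 and Fzd6 were higher. Of all tested genes, 37.2% were called lower in this comparison. Fzd1 differed by -0.87, Fzd5 by -0.996, Fzd7 by -1.41 and Fzd8 by -0.74 (-2.29 with its next probe set), and Fzd9 was at background in fragments, at least 4.45-fold lower. Fzd9 entered the fit through the rest of brain arrays alone, so it had to be lower. None of the 7 lost its call under the alternatives other than the endothelial shift, which turns Fzd4 and Fzd6 to lower as well. Between the ages Fzd5 was higher in adult fragments by 1.82 (adjusted p = 0.000258) and Fzd7 by 1.10 (adjusted p = 0.00642).

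Wnt5b was at 6.67, 6.71 and 6.81 in embryonic fragments, 6.76, 6.29 and 6.25 in rest of brain and 9.05, 8.40 and 8.09 in adult fragments, higher by 1.78 in adult than in embryonic fragments (limma adjusted p = 0.000290). Its other probe set gave 0.43 and was not called (adjusted p = 0.103), so the difference rests on 1 probe set. Ror2 was at 5.68, 5.80 and 5.85 in embryonic, 6.05, 6.60 and 6.66 in rest of brain and 4.63, 4.70 and 4.67 in adult fragments. Porcn, which adds a lipid to Wnt proteins, was lower in embryonic fragments than in rest of brain by -2.52 and higher in adult than in embryonic fragments by 1.51 (adjusted p = 7.69e-05).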
